A study of Homo sapiens with 6 samples.

Results

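The zinc transporter gene families, the vesicular zinc transporter gene TMEM163 and the metallothionein genes were described in WM164, a human melanoma cell line whose BRAF kinase is mutant. The families were chosen by gene symbol, and TMEM163 was added because of its measured difference between the groups. They comprise the 10 SLC30 genes, TMEM163, the 14 SLC39 genes, 9 metallothionein genes and MTF1, the transcription factor that senses zinc. Of these 35 genes, 34 had a probe set with a single platform symbol, out of 18417 genes tested in all, and MT1A was not analysed here. Where a gene had more than 1 probe set, the one with the highest 6-array mean stood for it. Colonies of WM164 kept for 60 days in 500 nM PLX4032 (vemurafenib, an inhibitor of mutant BRAF) were set against Parent cells of the same line, which the series title says received the solvent DMSO and the sample labels call untreated controls. IDTC colony is the labels' name for a treated sample, and resistant their word for its state. There were 3 samples in each group, with an array for each. Both groups are the same BRAF-mutant line in culture, and the labels do not say whether a colony grew from 1 cell or whether the samples of a group were separate cultures, so the p-values cover the spread among these samples alone, and that spread may be technical.

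Zinc is held at low free concentrations in the cytosol. Most SLC30 proteins (ZnT) move it out of the cytosol, across the plasma membrane or into the Golgi, endosomes and vesicles. SLC39 proteins (ZIP) move it into the cytosol from outside or from these stores. Metallothioneins are small cysteine-rich proteins that bind zinc and copper, and MTF1 switches on their genes and that of the exporter SLC30A1 when zinc rises. TMEM163 is a zinc efflux protein of synaptic vesicles, lysosomes and the plasma membrane that has also been called ZNT11. Melanosomes are organelles related to lysosomes, and melanocytic cells are known for holding metals in them.

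Values are the deposited log2 expression values, so a difference of 1 is 2-fold, and every difference is IDTC colony minus Parent. Differences are given with the standard error of the limma fit over all 18417 genes, and called where the adjusted p was under 0.05. Levels of single genes were not ranked against each other, and a level was set only against the array medians, the median level of all genes or the top of the scale. Array medians lay between 6.25 and 6.34, and a gene is called dim where its mean in both groups lay under the lowest of them. Arrays of 1 group correlated at 0.997 to 0.998 and arrays of different groups at 0.967 to 0.969. Parent replicate 1 stood somewhat apart, with a mean absolute deviation from its group mean of 0.0797 over all genes, against 0.0492 to 0.0594 on the other 5 arrays. Of the 7 melanocyte lineage markers measured, MITF, SOX10, PMEL, MLANA, TYR and S100B lay above the median level of all genes (7.02), while TYRP1 was dim at 4.45 in colonies and 4.69 in Parent cells. Of these, MLANA (-1.45 ± 0.04) and TYRP1 (-0.23 ± 0.07) were lower in colonies, and S100B (0.57 ± 0.05), SOX10 (0.42 ± 0.06) and PMEL (0.33 ± 0.04) were higher, so the lineage markers moved too. Their part in the zinc gene results was not tested. Among markers of other cell types, 4 of 6 keratinocyte, 2 of 6 fibroblast, 4 of 5 leukocyte and 5 of 6 endothelial genes were dim.

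Most of the zinc genes differed by little, in both directions, around a single deep loss of TMEM163. Of the 33 measured members other than TMEM163, 4 were called higher in colonies, 13 lower and 16 did not pass. Over all genes 43.8% were called, 20.9% as higher and 22.9% as lower, so the number of calls was near the background. Calls were commoner among genes above the median level, where 68.0% of 9208 passed (31.2% higher and 36.8% lower). Of the 24 of the 33 members above that level, 16 were called. The 33 members had a median difference of -0.16, against -0.0042 for all genes. Of the 17 called members 13 differed by less than 1.5-fold, and none of them reached 2-fold, a size that 5.41% of all genes passed together with the test. All 3 colony values lay above all 3 Parent values for 7 of the 33 members and below them for 17. Among all genes this held for 24.4% and 26.4%, or 50.8% in either direction.

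**Figure D1:**
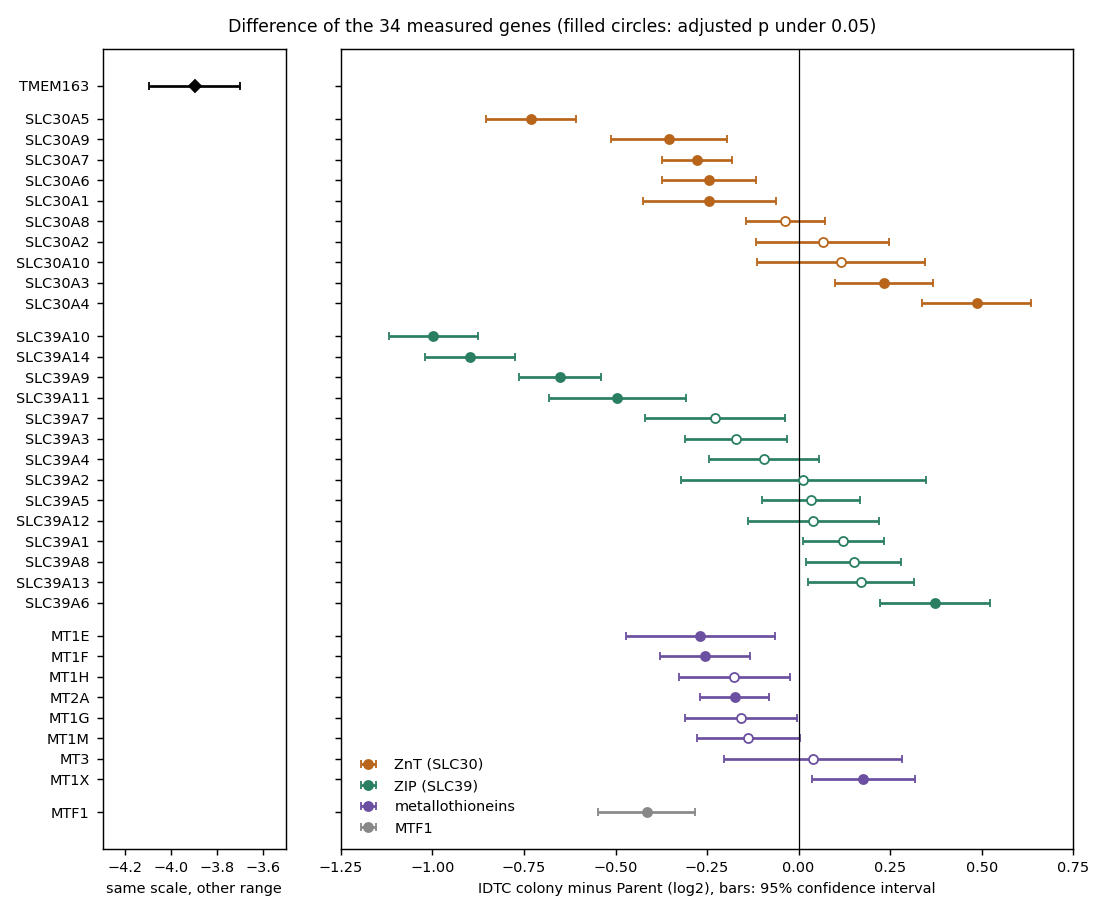
Difference between IDTC colonies and Parent cells (log2, x axis, bars are 95% confidence intervals of the limma fit) for the 34 measured genes, by family, with TMEM163 (diamond, chosen for its difference and not tested) in a panel of its own range. Filled circles passed the test (adjusted p under 0.05); most circles lie within 0.5 of 0, and SLC39A10, SLC39A14, SLC30A5 and SLC39A9 lie farthest below it.

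TMEM163 (probe set 8055350, chromosome 2) had values of 5.43, 5.65 and 5.32 in colonies, against 9.37, 9.32 and 9.39 in Parent cells. The groups were far apart, with means of 5.47 ± 0.17 in colonies and 9.36 ± 0.04 in Parent cells (SD, n = 3 each). The colony values were the more spread of the 2 groups, and the median within-group SD of all genes was 0.08. The difference of -3.90 ± 0.08 is 14.9-fold and was the 7th deepest of 18417 genes. TMEM163 was put among the members because of this difference, so it is given as a description with no test. The colony mean was under the lowest array median (6.25). Its distance from background was not tested, so the fold is that of the deposited values. In RNA of whole cultures, fewer cells that express a gene and less of its RNA per cell cannot be told apart. LYZ, named after its value was seen, was the 1 called gene of 5 leukocyte markers. It was lower, at 5.41 in colonies and 7.76 in Parent cells. The other 4 were dim, among them PTPRC, which marks all leukocytes, at 3.71 in colonies and 3.67 in Parent cells. Of 6 fibroblast markers LUM and PDGFRA were called lower, and no keratinocyte or endothelial marker was called. A link of these markers to TMEM163 was not tested.

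No gene beside TMEM163 differed by as much. That was largely set in advance, since TMEM163 was chosen for its difference. Of the 10 nearest measured genes on chromosome 2 (5 on each side), 3 were higher in colonies, 2 lower and 5 did not pass, with a median difference of -0.01. MGAT5, next to it on one side, differed by -0.53 ± 0.05, and ACMSD, next on the other, by -0.02 ± 0.07. The median of its 50 nearest genes above the median level (25 on each side) was -0.31. MCOLN1, a lysosomal cation channel reported to bind TMEM163, differed by -0.23 ± 0.05 (limma adjusted p = 0.00523). MCOLN3, from the same gene list, went the other way (0.47 ± 0.07, limma adjusted p = 0.000932). Both are named outside the rule for named genes given below, and a link of either to TMEM163 was not tested.

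**Figure D2:**
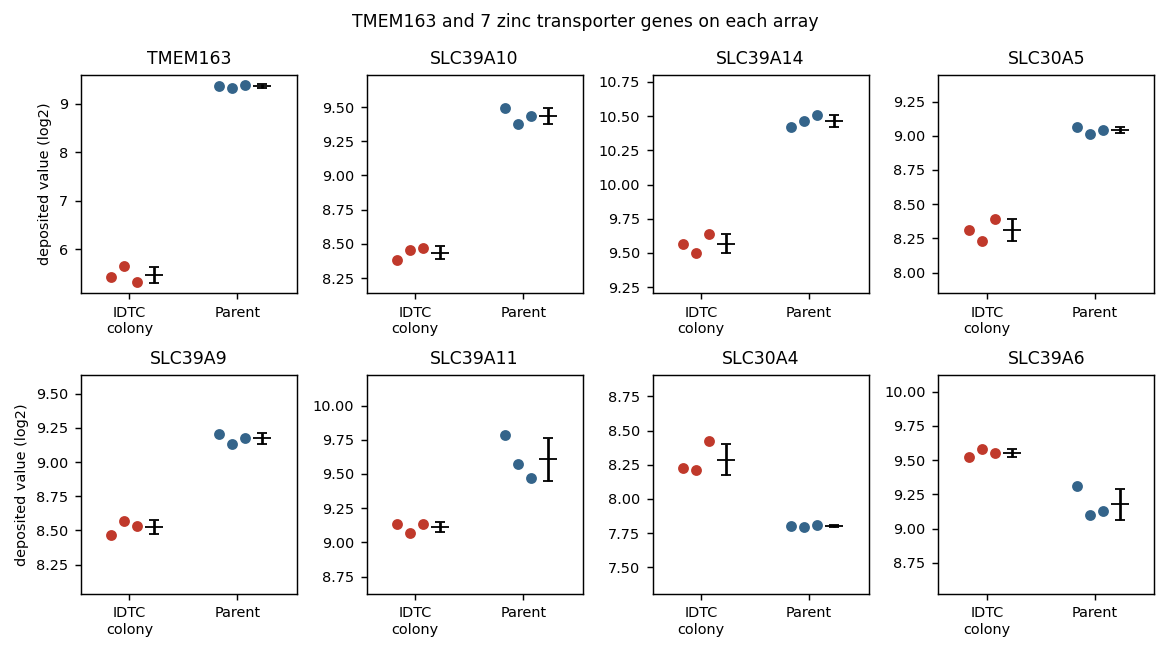
Deposited log2 value (y axis) on each array for TMEM163 and 7 zinc transporter genes, with IDTC colonies on the left and Parent cells on the right of each panel; dots are arrays, and the black mark is the group mean with its SD. Every panel spans at least 1.6 log2 units. The 7 transporters are the called ones with the largest differences, so that the groups do not overlap in these 8 genes follows from their choice. Among all genes 50.8% do not overlap.

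Among the SLC30 exporters, 2 of 10 genes were called higher, 5 lower and 3 did not pass. The 3 that carry zinc into the early secretory pathway were all lower in colonies. All 3 lay above the median level, where 36.8% of genes were called lower, so this is not read as a result about the pathway. SLC30A5, which pairs with SLC30A6 to supply zinc to enzymes in the Golgi, had values of 8.31, 8.23 and 8.39 in colonies, against 9.06, 9.02 and 9.05 in Parent cells. Its difference of -0.73 ± 0.05 (limma adjusted p = 2.25e-05) is 1.66-fold and the largest of this family. Its partner SLC30A6 averaged 10.04 ± 0.04 in colonies and 10.29 ± 0.08 in Parent cells (SD, n = 3 each), a difference of -0.24 ± 0.05. SLC30A7, the other Golgi transporter, differed by -0.28 ± 0.04, and the 3 colony values, all at 10.61, lay below the lowest Parent value of 10.86.

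SLC30A9, a mitochondrial zinc exporter, differed by -0.35 ± 0.07, with values of 8.44, 8.52 and 8.44 in colonies and 8.96, 8.74 and 8.76 in Parent cells. Its 50 neighbours on chromosome 4 had a median of -0.41, close to the gene's own difference. SLC30A1, the exporter of the plasma membrane and a target of MTF1, had values of 6.69, 6.85 and 6.55 in colonies, against 6.99, 6.90 and 6.93 in Parent cells. Its difference of -0.24 ± 0.08 passed narrowly (limma adjusted p = 0.0365). The call was lost in 5 of the 6 fits that left out an array, all but that without IDTC colony replicate 2. Among the 5 were that without Parent replicate 1 (-0.22, adjusted p = 0.105) and that without IDTC colony replicate 3 (-0.17, adjusted p = 0.0919).

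The exporters called higher were SLC30A4 and SLC30A3. SLC30A4, which loads zinc into endosomes and the trans-Golgi network, had values of 8.23, 8.21 and 8.42 in colonies, against 7.80, 7.80 and 7.81 in Parent cells. It was higher by 0.49 ± 0.06 (limma adjusted p = 0.000474), or 1.40-fold, beside a neighbour median of -0.13. SLC30A3, the transporter of synaptic vesicles, was higher by 0.23 ± 0.06 (limma adjusted p = 0.0116), at 8.14 ± 0.06 in colonies and 7.90 ± 0.07 in Parent cells. The remaining SLC30A2, SLC30A8 (the transporter of insulin granules) and SLC30A10 (a manganese exporter) were dim, with differences of 0.07, -0.04 and 0.12 that did not pass.

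Among the SLC39 importers, 1 of 14 genes was called higher, 4 lower and 9 did not pass. The largest fall was that of SLC39A10, an importer of the plasma membrane. It had values of 8.38, 8.46 and 8.47 in colonies, against 9.49, 9.37 and 9.44 in Parent cells. The difference of -0.998 ± 0.05 (limma adjusted p = 4.71e-06) lay just short of 2-fold, and the 50 neighbours on chromosome 2 had a median of -0.33. SLC39A6, with which SLC39A10 forms a complex, was the importer called higher. It had values of 9.52, 9.58 and 9.55 in colonies, against 9.31, 9.10 and 9.13 in Parent cells, a difference of 0.37 ± 0.06 (limma adjusted p = 0.00201).

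SLC39A14, which takes up zinc, iron and manganese, had values of 9.57, 9.50 and 9.64 in colonies, against 10.4, 10.5 and 10.5 in Parent cells. The difference was -0.90 ± 0.05, or 1.86-fold (limma adjusted p = 8.25e-06). SLC39A8, which shares this substrate range, did not pass, with values of 8.95 ± 0.06 in colonies and 8.80 ± 0.07 in Parent cells. Its difference of 0.15 ± 0.06 had a 95% confidence interval of 0.02 to 0.28 (limma adjusted p = 0.0649), beside a neighbour median of -0.33. It passed in only 1 of the 6 fits that left out an array, that without Parent replicate 1 (0.19, adjusted p = 0.0254).

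The importers of the Golgi included 2 that fell. SLC39A9 was at 8.52 ± 0.05 in colonies and 9.17 ± 0.04 in Parent cells (SD, n = 3 each), a difference of -0.65 ± 0.05 (limma adjusted p = 2.44e-05). SLC39A11 had values of 9.14, 9.07 and 9.14 in colonies, against 9.78, 9.57 and 9.47 in Parent cells. It differed by -0.50 ± 0.08 (limma adjusted p = 0.0015) while its 50 neighbours on chromosome 17 had a median of 0.41, so it fell among genes most of which had positive differences. SLC39A7, which releases zinc from the endoplasmic reticulum and Golgi, lay close to the threshold. It had values of 8.57, 8.86 and 8.80 in colonies and 8.92, 8.95 and 9.04 in Parent cells (-0.23 ± 0.08, limma adjusted p = 0.0565). It passed in only 1 of the 6 fits that left out an array, that without IDTC colony replicate 2 (-0.29, adjusted p = 0.0382).

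The other 5 importers above the median level that did not pass were SLC39A1, SLC39A3, SLC39A4, SLC39A8 and SLC39A13. SLC39A3, a plasma membrane importer, missed by the narrowest margin (-0.17 ± 0.06, limma adjusted p = 0.0502). It passed in only 1 of the 6 fits that left out an array, that without Parent replicate 1 (-0.22, adjusted p = 0.0143). SLC39A1, an importer found in most tissues, differed by 0.12 ± 0.05 and SLC39A13, a transporter of the Golgi needed in connective tissue, by 0.17 ± 0.06. SLC39A13 passed in only 1 of these 6 fits, that without Parent replicate 3 (0.22, adjusted p = 0.0373). SLC39A4, the importer of intestinal uptake, differed by -0.09 ± 0.06. The dim genes SLC39A2, SLC39A5 and SLC39A12 had differences between 0.01 and 0.04.

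**Figure D3:**
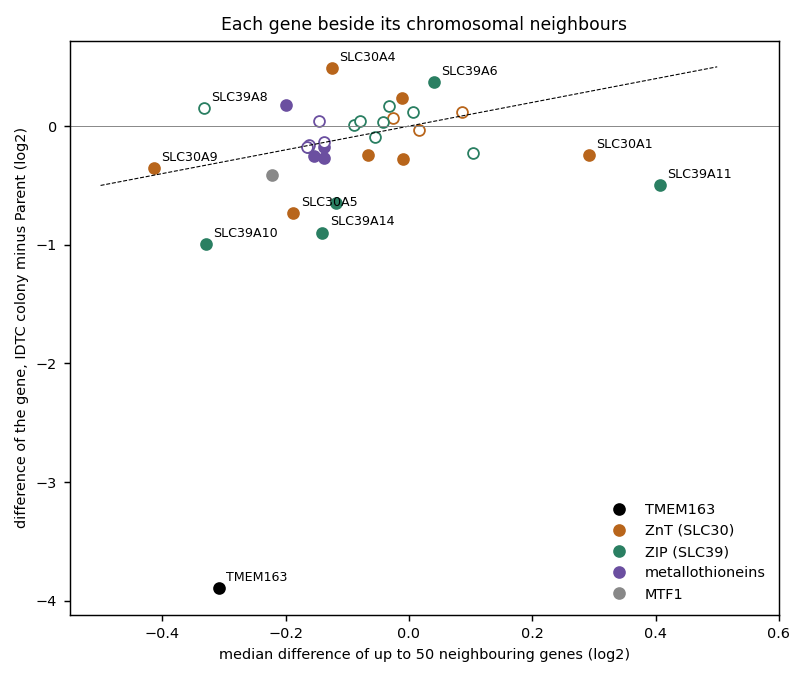
Difference of each measured gene (log2, y axis) against the median difference of up to 50 neighbouring genes above the median level (log2, x axis); filled circles passed the test or are TMEM163, open circles did not pass, and the dashed line marks equal values. SLC30A9 lies close to the line (-0.35 beside -0.41), SLC39A11 and SLC30A1 lie below 0 with neighbours above it, and TMEM163 lies at -3.90 beside neighbours at -0.31.

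Beside the chromosomal neighbourhood, 12 of the 17 called members had a difference of the same sign as the neighbour median and 5 the other sign. The called difference was the larger of the 2 in size for 14 of the 17. That count was largely set in advance, since called genes have sizeable differences and a median over many genes is small. No share over all called genes was worked out for either count, so neither is read as a result about the members. For metallothionein genes the neighbours include other metallothioneins.

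The metallothioneins differed by little. Of 8 measured genes, 1 was called higher in colonies, 3 lower and 4 did not pass, all by less than 1.5-fold, and the family's median difference was -0.17. MT2A, the most widely expressed isoform, had values of 13.15, 13.15 and 13.14 in colonies, against 13.30, 13.32 and 13.33 in Parent cells. Its difference of -0.17 ± 0.04 (limma adjusted p = 0.00904) is 1.13-fold, and the groups did not overlap. These values lie near the highest in the table, 13.94. The other 2 probe sets of MT2A gave -0.14 and -0.18. In a fit over all probe sets the first of these did not pass (limma adjusted p = 0.0661) and the second did (limma adjusted p = 0.0218).

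MT1F was lower by a like amount, at 8.18 on all 3 colony arrays and 8.44 ± 0.08 in Parent cells, a difference of -0.26 ± 0.05 (limma adjusted p = 0.00492). Its colony values were identical as deposited, which was the case for 471 of all genes, and an SD of 0 reflects that. MT1E was called lower as well (-0.27 ± 0.09, limma adjusted p = 0.04), with values of 7.27, 7.02 and 7.22 in colonies and 7.30, 7.53 and 7.49 in Parent cells. The MT1E call was lost in 4 of the 6 fits that left out an array, those without Parent replicate 2, Parent replicate 3, IDTC colony replicate 2 or IDTC colony replicate 3 (adjusted p = 0.0762 to adjusted p = 0.139). MT1X was the metallothionein called higher. It had values of 10.42, 10.57 and 10.57 in colonies, against 10.35, 10.40 and 10.28 in Parent cells. Its difference of 0.18 ± 0.06 passed narrowly (limma adjusted p = 0.047). The call ended in all but 1 of the 6 fits that left out an array (adjusted p = 0.0593 to adjusted p = 0.151), the exception being that without IDTC colony replicate 1. It also ended with the arrays shifted to a common median (0.15, adjusted p = 0.12).

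The calls of this family also moved with Parent replicate 1. It was the lowest of the 3 Parent arrays for 7 of the 8 metallothioneins. Without it 6 of the 8 were called lower and none higher, with MT1G (-0.22, adjusted p = 0.0167), MT1H (-0.24, adjusted p = 0.0114) and MT1M (-0.19, adjusted p = 0.0121) added. The same 3 genes were added with all arrays shifted to a common median. With all arrays as deposited these 3 did not pass (-0.16, -0.18 and -0.14). MT3, known as the metallothionein of brain, had values of 7.82, 7.81 and 7.82 in colonies, against 7.52, 7.92 and 7.89 in Parent cells, and did not pass (0.04 ± 0.10). Whether the difference between Parent arrays bears on the calls was not tested beyond these fits. Metallothionein genes are near-identical copies of one another, so array signal may be shared between them and the values of single isoforms are uncertain.

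**Figure D4:**
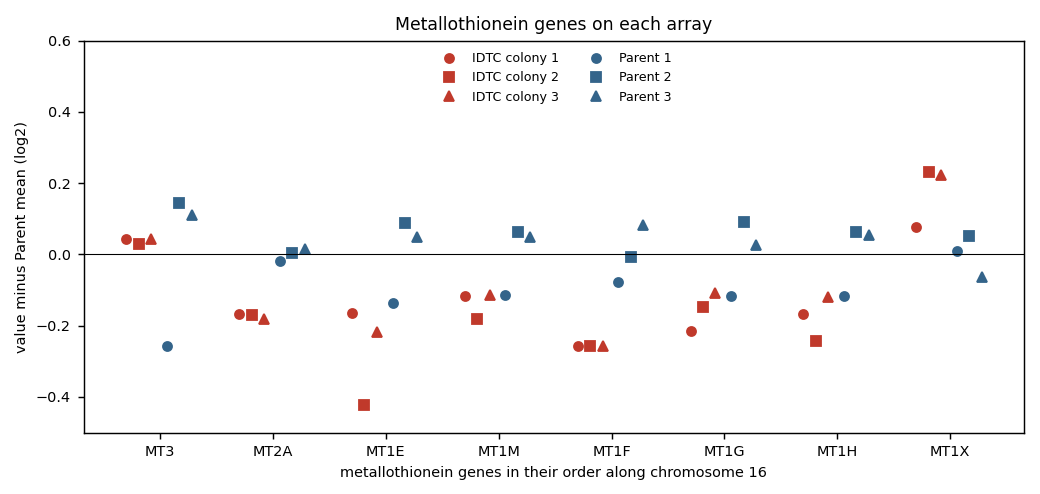
Value of each metallothionein gene on each array minus its Parent mean (log2, y axis), in gene order along chromosome 16 (x axis); red marks are IDTC colonies (left of each gene) and blue marks Parent cells (right), with a shape for each replicate. Colony values of MT2A, MT1E and MT1F lie below all Parent values. Those of MT1M and MT1H, which did not pass, do so only barely. Their highest colony and lowest Parent values are 4.5748 and 4.5752 for MT1M, and 6.4987 and 6.5003 for MT1H. Colony values lie below all Parent values in 26.4% of all genes. Those of MT1X lie above all Parent values, as in 24.4% of all genes. Parent replicate 1 (blue circle) is the lowest Parent array in all genes but MT1X.

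MTF1, the transcription factor that binds metal response elements in metallothionein promoters, was lower in colonies. It had values of 8.72, 8.74 and 8.68 in colonies, against 9.23, 9.06 and 9.10 in Parent cells. The difference of -0.42 ± 0.06 (limma adjusted p = 0.000589) is 1.33-fold, beside a neighbour median of -0.22, and the groups did not overlap.

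Promoter sequence was compared because the metallothioneins and SLC30A1 are known MTF1 targets whereas TMEM163 is the member that differed most. RefSeq promoter windows (GRCh38.p14) matched 26 of the 35 genes, and the 250 bases before the annotated start were searched on both strands for the metal response element core, TGCACNC or TGCGCNC. Some genes have more than 1 window, and 14 of the members' 35 windows held the core, against 24.8% of all 35116 windows of this length. MT1H held 8 matches, MT2A 7, MT1X 4 and SLC30A2 3, and 1.58% of all windows hold 3 or more. SLC30A1 held 1 and TMEM163 none. Matches to an AP-1 site (TGANTCA, in 6.57% of all windows) were found in MT2A and SLC30A10, and those to an M-box (TCATGTG, in 2.52%) in SLC30A10 and SLC39A2. None of these matches overlaps a metal response element core in MT2A, and the other windows named here hold no core. The windows are printed 5′ to 3′ on the gene's strand, in lower case with the metal response element core of either strand in capitals. They lie at chr16:56608334-56608583 (+) for MT2A, chr16:56682220-56682469 (+) for MT1X, chr16:56669564-56669813 (+) for MT1H, chr1:211579162-211579411 (-) for SLC30A1 and chr2:134719001-134719250 (-) for TMEM163.
MT2A: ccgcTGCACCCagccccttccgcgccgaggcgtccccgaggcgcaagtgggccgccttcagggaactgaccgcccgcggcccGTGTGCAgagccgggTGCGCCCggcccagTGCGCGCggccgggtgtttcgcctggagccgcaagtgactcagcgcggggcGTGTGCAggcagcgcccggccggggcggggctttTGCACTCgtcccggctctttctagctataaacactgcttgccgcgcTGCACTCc
MT1X: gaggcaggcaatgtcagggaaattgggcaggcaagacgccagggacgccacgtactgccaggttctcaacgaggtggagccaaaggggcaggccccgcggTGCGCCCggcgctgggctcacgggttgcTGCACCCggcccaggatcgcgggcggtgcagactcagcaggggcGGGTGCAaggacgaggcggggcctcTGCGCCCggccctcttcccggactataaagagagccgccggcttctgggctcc
MT1H: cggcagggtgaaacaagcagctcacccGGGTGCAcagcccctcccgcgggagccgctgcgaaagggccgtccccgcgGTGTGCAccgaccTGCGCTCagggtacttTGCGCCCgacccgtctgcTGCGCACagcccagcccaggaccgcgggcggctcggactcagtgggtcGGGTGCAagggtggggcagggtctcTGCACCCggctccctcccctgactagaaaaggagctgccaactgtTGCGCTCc
SLC30A1: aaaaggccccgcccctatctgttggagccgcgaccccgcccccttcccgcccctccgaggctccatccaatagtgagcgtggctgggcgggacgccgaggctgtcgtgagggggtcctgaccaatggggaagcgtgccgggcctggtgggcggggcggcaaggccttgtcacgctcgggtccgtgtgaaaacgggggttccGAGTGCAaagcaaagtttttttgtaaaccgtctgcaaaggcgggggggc
TMEM163: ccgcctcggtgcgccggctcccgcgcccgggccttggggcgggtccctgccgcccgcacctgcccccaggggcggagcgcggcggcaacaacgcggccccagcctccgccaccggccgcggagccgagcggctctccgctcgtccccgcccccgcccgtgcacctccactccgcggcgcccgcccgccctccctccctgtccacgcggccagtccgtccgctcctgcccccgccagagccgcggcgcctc
MT2A with 7 matches was lower in colonies (-0.17) and MT1X with 4 was higher (0.18), the MT1X call being the one lost in 5 of the 6 fits that left out an array. MT1H with 8 matches (-0.18) and SLC30A2 with 3 (0.07) did not pass. MT1E, MT1F, MT1G, MT1M and MT3 had no window, so most of the measured metallothioneins could not be compared in this way. A match is a description of letters, not a bound site.

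Other metal-handling genes were read from lists beside the zinc genes, and they too went both ways. Most of them lay above the median level, where 68.0% of genes were called, against 43.8% of all genes. Of the genes above that level, 6 of 8 copper, 6 of 8 iron and 8 of 10 of the third list were called. The shares over the whole lists, genes below that level included, were 70% for copper, 60% for iron and 66.7% for the third list. These lists are small, so the counts are not read as a result about them. Of 10 copper genes 3 were called higher and 4 lower. STEAP3, a metalloreductase, differed by -1.21 ± 0.10 (limma adjusted p = 4.54e-05), and ATOX1, the copper chaperone of the secretory pathway, by -1.11 ± 0.04 (limma adjusted p = 1.31e-06). Of 10 iron genes 1 was called higher and 5 lower. HMOX1, the heme-degrading enzyme gene that heavy metals induce, was at 8.34 in colonies and 9.24 in Parent cells (-0.90 ± 0.05), and TFRC, the transferrin receptor, differed by -0.83 ± 0.05. Of 12 genes of manganese and magnesium transport and zinc-permeable channels, 4 were called higher and 4 lower, led by ATP13A1 (-0.75 ± 0.04) and MAGT1 (-0.72 ± 0.07).

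Metallothionein genes are also induced by glucocorticoids and by heat and other protein stress, so these lists were read beside them. Of 7 glucocorticoid response genes, 3 were called higher and 2 lower. Above the median level lay 6 of the 7, and 5 of these 6 were called, beside 68.0% of all genes there. The share over the whole list was 71.4%, beside 43.8% of all genes. This list is small too, so its counts are not read as a result about it. KLF9, a transcription factor gene, was higher by 1.04 ± 0.05 and DUSP1, a phosphatase gene, by 0.55 ± 0.07. All 6 heat shock genes measured were called lower, with differences between -0.85 and -0.16. All 6 lay above the median level, where 36.8% of genes were called lower. The largest were those of HSPE1 (-0.85 ± 0.07) and HSPH1 (-0.73 ± 0.05), a mitochondrial and a cytosolic chaperone gene. The part of either response in the metallothionein values was not tested.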

How the data were processed

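RNA of 3 IDTC colony and 3 Parent samples was read on 1-colour Affymetrix whole-transcript arrays after biotin labelling, per the labels' protocols. The deposited values are log2 expression values per probe set, as their range shows. Affymetrix Expression Console is named in the submitters' processing notes, while its version and how probes were background-corrected, summarised and normalized were not given in the sources used here. Arrays have no read depth, and their number limits the precision. Scan dates and batches are not given either, and a batch matching the groups could not be told apart from treatment.

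Of 33297 probe sets, 19460 had 1 symbol in the platform annotation, 1754 several and 12083 none. Those with 1 symbol gave 18417 genes, each by its probe set of highest mean, with no filter on dim ones. The members, gene lists and rules were chosen with earlier results of these data known. The rule for named genes took every measured member, and up to 2 members past the test with the largest difference from each of 5 further lists (copper, iron, manganese and magnesium, glucocorticoid, heat shock). Groups were taken from the titles and compared by 2-sided tests in limma (lmFit, then eBayes) with no term but the group. P-values were adjusted by Benjamini and Hochberg's method over the whole table and called under 0.05. TMEM163 was given no test. The alternatives were 2 normalizations between arrays, a filter on dim genes, a mean over each gene's probe sets, trend and robust settings in eBayes, a replicate block and each array left out. Deviations from the group means correlated at -0.09, -0.06 and -0.01 between samples of like number, so the numbers were not taken as pairs. The reference gene table (GRCh38.p14) gave only names and gene order, matching 18388 genes. The fit was tested on simulated data. Versions were limma 3.58.1 (R 4.3.3) and matplotlib 3.10.9 (Python 3.11.15).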

Additional observations from a re-analysis of the deposited data

How the results depend on the processing

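Of the 17 members called besides TMEM163, 14 kept their call and direction in every alternative that could test them. The exceptions were SLC30A1, MT1E and MT1X, whose calls were lost in several alternatives. For SLC30A1 these were all fits with 1 array left out but that without IDTC colony replicate 2 (adjusted p = 0.0732 to adjusted p = 0.105). The TMEM163 difference ranged from -3.99 to -3.82 with 1 array left out. Zinc transporter genes higher in colonies numbered 3, but 5 after quantile normalization, 6 with only genes above the median level and 6 with trend and robust settings, and 3 to 4 with 1 array left out; the genes added were among SLC39A1, SLC39A8 and SLC39A13. Those lower numbered 9, but 11 with arrays shifted to a common median and 8 to 10 with 1 array left out. They numbered 10 after quantile normalization, with only genes above the median level, with a mean over probe sets, and with trend and robust settings. Metallothionein genes higher numbered 1, and 0 with arrays shifted to a common median, 0 with the replicate block and 0 to 1 with 1 array left out. Those lower numbered 3, but 6 with arrays shifted to a common median and 2 to 6 with 1 array left out. The median difference of all genes was -0.03 with the common median and -0.0042 without it, and the cause of the changed calls was not tested. With the replicate block SLC30A1 (adjusted p = 0.0506), MT1E (adjusted p = 0.0761) and MT1X (adjusted p = 0.0761) were not called and SLC39A7 was (adjusted p = 0.042), with 3633 genes higher and 3931 lower in all against 3849 and 4212; the samples share only a number. Calls over all genes ranged from 3384 to 3860 higher and from 3733 to 4494 lower with 1 array left out. Whether dim values lie above background was not tested.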

Other observations

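Metallothionein sequences outside the members gave differences of the same small size. MT1B was at 7.09 ± 0.00 in colonies and 7.21 ± 0.05 in Parent cells (SD, n = 3 each), and MT4, an isoform known from stratified epithelium, at 5.92 ± 0.01 in colonies and 6.06 ± 0.14 in Parent cells. MT1HL1, a copy outside the cluster, differed by -0.16. A probe set shared by the symbols NUTF2 and MT1L differed by -0.04. In a fit over all probe sets these 4 did not pass, with adjusted p = 0.112 to adjusted p = 0.803 by limma.

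The metallothionein cluster lies among genes that went both ways. Of the 10 nearest measured genes outside the cluster (5 on each side), 2 were higher in colonies, 2 lower and 6 did not pass by limma, with a median of -0.03. BBS2, a gene of the primary cilium next to the cluster, was at 8.40 ± 0.10 in colonies and 7.38 ± 0.02 in Parent cells, a difference of 1.01 ± 0.06. NUP93, a nuclear pore gene next to its other end, differed by -0.55 ± 0.06. These neighbours were named after their values were seen. The 3 probe sets of SLC39A7 held identical values on all 6 arrays and count as 1 measurement.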
